A study of Mus musculus with 8 samples.

Results

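Semaphorins are guidance proteins, and plexins and neuropilins are their receptors. The genes of the 3 families were taken from the expression table of the hippocampus by symbol alone: Sema with class 3 to 7, Plxn of classes a to d, and Nrp1 and Nrp2. Of the 19201 genes in the table, 32 fitted this rule: 20 semaphorins, 9 plexins, 2 neuropilins and Plxna4os1, an antisense RNA that lies within Plxna4 on the opposite strand. The rule names genes by symbol and uses no value of theirs, and all 32 genes passed the filter on low values and were tested.

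RNA was sequenced from hippocampi of wild-type C57BL/6 mice, labelled control, and of Mbd2-/- mice, which carry a constitutive knockout of the methyl-CpG binding protein Mbd2; the comparison asked which transcripts differ when this protein is missing. There were 4 libraries per genotype, each pooling a pair of mice aged 10 to 12 weeks, and per the study's methods littermates came from heterozygous parents. Ribosomal RNA was depleted from total RNA, and paired ends of 100 bases were read. The values are normalized counts, which are reads on a gene divided by a size factor of the library, and genotypes were compared with limma on log2(normalized count + 1) over 14504 genes with a mean of at least 10, with calls at an adjusted p (Benjamini-Hochberg) below 0.05. Since the samples are whole tissue, fewer cells of a type and less RNA per cell cannot be told apart.

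Most semaphorins signal through plexins, large transmembrane receptors whose intracellular part acts on small GTPases and thereby on the cytoskeleton of the growth cone or synapse. Secreted class 3 semaphorins mostly need a neuropilin as binding partner beside a class A plexin, whereas Sema3e can bind Plxnd1 directly and the membrane-bound classes bind plexins without a neuropilin. In the hippocampus the system is known for steering and pruning mossy fibres and for shaping dendritic spines, with Sema3f, Nrp2 and Plxna3 forming a well known set and Sema6a with Plxna2 and Plxna4 another.

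Mbd2 is a reader of methylated CpG, so the sequence around the start is shown for 4 members. They were picked by expression among members with a single start listed, and not by CpG number. Among these, Sema3a, Plxna2 and Sema4f had the largest falls called lower, and Sema3c had the highest change not called. The sequences are those of RefSeq on GRCm38.p6, lie mostly upstream of an annotated start, and have each CG in capitals. Sema3a (chr5:13396534-13396833, plus strand) held 2 CG and Sema4f (chr6:82939720-82940019, minus strand) held 7, and both genes were called lower. Plxna2 (chr1:194619579-194619878, plus strand) held 25 and was called lower too, and Sema3c (chr5:17574566-17574865, plus strand) held 42 and was not called. On mm9 Sema3a is annotated at chr5:13125593-13602565, so the start shown for it may lie within the gene.
Sema3a: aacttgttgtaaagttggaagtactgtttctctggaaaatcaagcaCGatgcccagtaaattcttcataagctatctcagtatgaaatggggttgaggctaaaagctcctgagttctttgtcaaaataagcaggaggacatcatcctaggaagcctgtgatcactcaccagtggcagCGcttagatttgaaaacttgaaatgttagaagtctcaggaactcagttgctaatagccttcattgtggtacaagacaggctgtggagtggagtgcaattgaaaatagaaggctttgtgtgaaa
Sema4f: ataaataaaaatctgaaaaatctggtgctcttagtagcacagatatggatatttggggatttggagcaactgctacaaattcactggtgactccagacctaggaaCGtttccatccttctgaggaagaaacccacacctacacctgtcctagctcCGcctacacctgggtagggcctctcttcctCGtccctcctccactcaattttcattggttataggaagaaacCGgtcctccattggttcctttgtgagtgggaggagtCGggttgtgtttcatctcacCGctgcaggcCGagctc
Plxna2: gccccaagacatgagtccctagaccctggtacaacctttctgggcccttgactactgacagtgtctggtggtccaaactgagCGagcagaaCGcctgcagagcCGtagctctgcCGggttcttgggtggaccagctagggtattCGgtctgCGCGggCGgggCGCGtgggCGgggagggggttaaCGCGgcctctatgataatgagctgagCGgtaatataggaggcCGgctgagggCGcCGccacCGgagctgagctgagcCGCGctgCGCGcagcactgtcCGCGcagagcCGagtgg
Sema3c: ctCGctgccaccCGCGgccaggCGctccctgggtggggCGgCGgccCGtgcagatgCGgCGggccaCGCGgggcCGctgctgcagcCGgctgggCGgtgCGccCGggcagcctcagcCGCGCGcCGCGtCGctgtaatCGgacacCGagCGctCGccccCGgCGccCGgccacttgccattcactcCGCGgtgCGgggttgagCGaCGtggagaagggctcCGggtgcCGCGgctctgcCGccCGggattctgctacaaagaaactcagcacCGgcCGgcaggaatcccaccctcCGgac

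Promoter entries were read for 26 of the 32 members, with 37 starts and 2 to 42 CG each. Both strands hold the same CG, since the motif is its own complement. Among all 32851 promoters of this length 94.6% held at least 1 CG, with a median of 7, and 67.6% of the members' starts lay above that median against 48.7% of all promoters. At the most CpG-rich start the median was 18 for the 9 members called lower that had an entry and 23 for the 17 not called. Sema3b, Sema3f, Plxna1, Plxna4 and Plxna4os1 had no entry. Sema6a was not read, since starts of members on its chromosome were left out, while the set of all promoters kept that chromosome.

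The deleted gene was read first as a check of the labels. Mbd2 stood at 295, 363, 371 and 354 normalized counts in the wild-type libraries and at 244, 240, 339 and 217 in the Mbd2-/- libraries. The fall of 0.43 ± 0.12 (SE) on the log2 scale passed the limma test (adjusted p = 0.0174), but Mbd2-/- replicate 3 lay above wild-type replicate 1, and an exact two-sided permutation test gave p = 0.0571. The count covers the whole gene, and per the study's supplement the allele leaves the first exon intact, so that reads remain.

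Mbd2-/- replicate 4 stood apart from the rest of its group. The correlation across genes between transcript length and a library's deviation from the mean of all libraries (Spearman's rho) was 0.29 to 0.36 in the wild-type libraries, -0.46, -0.36 and -0.44 in Mbd2-/- replicates 1 to 3, and 0.15 in replicate 4. Long transcripts thus had relatively lower counts in 3 of 4 Mbd2-/- libraries. Members are long genes, with a median longest transcript of 5918.5 bases against 3187 over tested genes with an annotated length. Calls of the members are therefore also given after a smooth curve of length was taken out of every library, and, where they differ, without Mbd2-/- replicate 4.

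In Mbd2-/- hippocampus 11 members were lower and 1, Sema3b, was higher, and 20 were not called. Among all tested genes 10.0% were called lower and 12.0% higher. The change was negative in 26 of 32 members, and its median was -0.17 on the log2 scale against a median of all tested genes of -9.1e-05. The genotypes did not overlap for 13 members that were lower in Mbd2-/- and for 2 that were higher, against 11.5% and 12.1% of all tested genes. Each Mbd2-/- library had a negative median over the members relative to the wild-type mean, from -0.22 in replicate 1 to -0.12 in replicate 4.

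With the length trend removed 4 members were called lower (Plxna1, Plxna2, Plxnc1 and Sema4f) and 5 higher (Sema3b, Sema3c, Plxnb1, Plxnb2 and Plxnd1), where 6.80% and 8.09% of genes were called, and the median was -0.09. Without Mbd2-/- replicate 4 the counts were 16 lower and 2 higher, where 17.6% and 17.9% of genes were called. The 12 members called with all libraries were called without it too, joined by Plxnb3, Sema3e, Sema5a, Sema6a and Sema6d as lower and Sema7a as higher. The number called lower was also 5 when wild-type replicate 1 was left out, 6 when wild-type replicate 3 was and 5 when Mbd2-/- replicate 2 was, fits in which 5.98%, 6.05% and 6.47% of all genes were called lower, while Sema3b, Plxna1, Plxna2, Plxnc1 and Sema4f were called with each library left out in turn. On mm9 these last 4 lie at chr6:89266310-89312607 (Plxna1), chr1:196446023-196643063 (Plxna2), chr10:94253617-94407212 (Plxnc1) and chr6:82861879-82889763 (Sema4f).

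**Figure D1:**
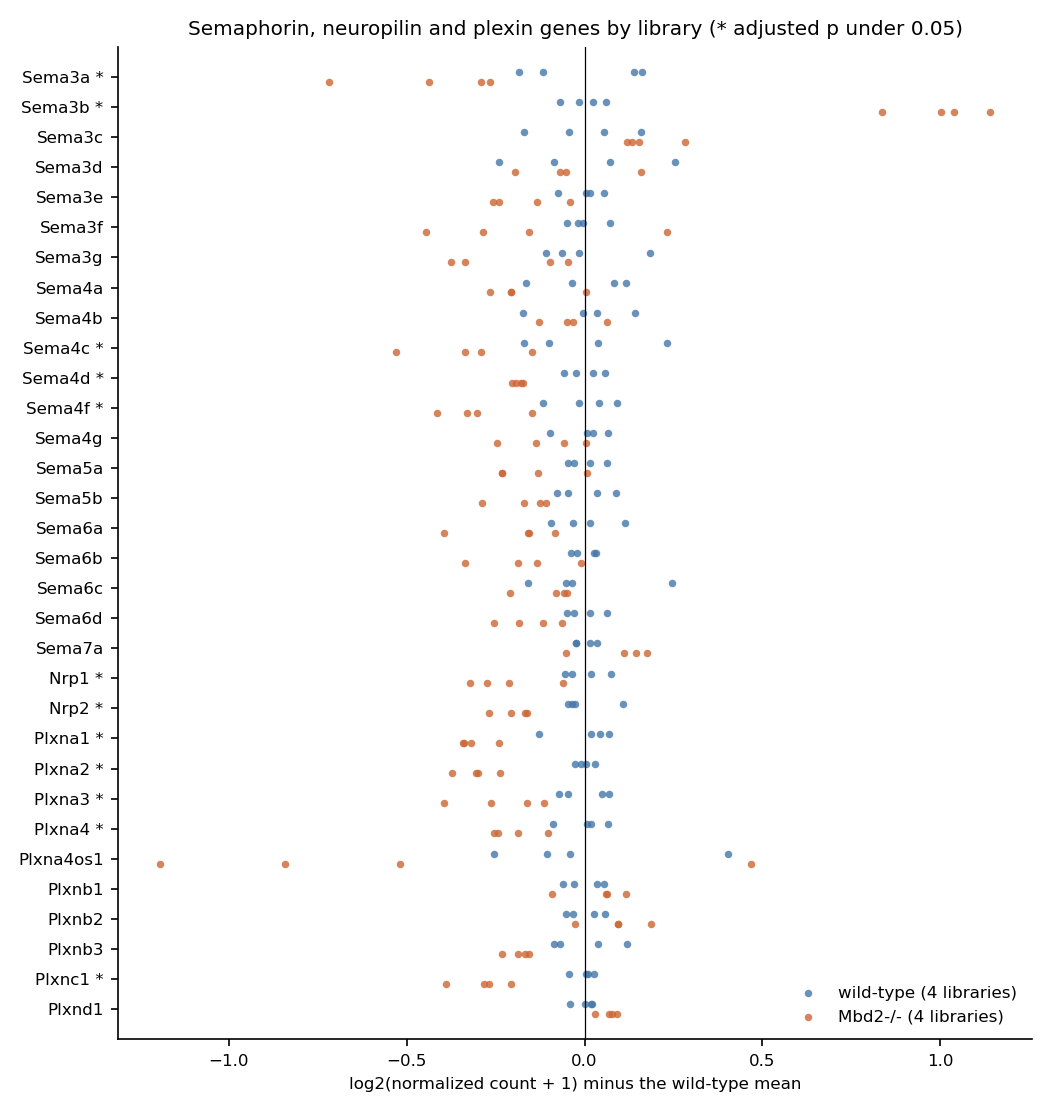
Values of the 32 members in each library as log2(normalized count + 1) minus the wild-type mean, with wild-type libraries in blue and Mbd2-/- libraries in orange; a star marks the 12 called genes. All 4 Mbd2-/- libraries of Sema3b lie far right of the wild-type libraries, and those of the class A plexins lie left of them.

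Among the secreted class 3 ligands, Sema3b had the widest difference in the family. Its normalized count was 82.4, 75.2, 80.2 and 78.1 in wild-type and 142, 159, 175 and 163 in Mbd2-/- libraries. Every Mbd2-/- library exceeded every wild-type library, and the means were 79.0 ± 3.07 and 160 ± 13.9 (SD, n = 4 each). The fold change was 2.01, or 1.005 on the log2 scale with a 95% interval of 0.79 to 1.22 (limma adjusted p = 1.43e-05), an exact two-sided permutation test gave p = 0.0286, the smallest that 4 against 4 libraries allow, and the change was 1.02 with the length trend removed and 0.99 without Mbd2-/- replicate 4. Sema3b is a secreted semaphorin also known as a tumour suppressor, and in the mm9 annotation it lies at chr9:107500005-107511560 on the minus strand.

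Markers of the choroid plexus, the secretory epithelium of the ventricles, moved with Sema3b. All 20 listed markers were higher, where 12.0% of all tested genes were. Their median log2 fold change was 0.86, with 19 without overlap (12.1% of all tested genes) and none at 0. Their summed normalized count was 24785 to 26502 in wild-type and 47800 to 54363 in Mbd2-/- libraries. The most abundant, Ttr, the transthyretin of cerebrospinal fluid, rose from 12761 ± 648 to 32066 ± 3323, Enpp2, which encodes autotaxin, from 9641 ± 201 to 14678 ± 522, and the anti-ageing hormone gene Kl from 839 ± 46.7 to 1232 ± 37.7. With the length trend removed 19 of the 20 were called higher, where 8.09% of all genes were, at a median of 0.77. Of 13 markers of the meninges, which sheathe the brain, 5 were higher and 2 lower at a median of 0.00046, so that the list moved in both directions. Its summed count was 2329 to 2419 in wild-type and 2903 to 3683 in Mbd2-/- libraries. Of 5 ependymal markers 3 were higher, and with the length trend removed 0 of them were called. Their part in the rise of Sema3b was not tested.

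Of the 5 nearest tested genes on either side of Sema3b, 2 were called higher and 1 lower, where 12.0% and 10.0% of all tested genes were. Gnai2, a G protein subunit 4.90 kb away, changed by 0.30 ± 0.08 (SE, limma adjusted p = 0.0123), and the glutamine transporter gene Slc38a3, 41.4 kb away, by 0.27 ± 0.06 (limma adjusted p = 0.00410). Rbm6, an RNA-binding protein gene 164 kb away, was lower by -0.27 ± 0.08 (limma adjusted p = 0.0167). All 3 were also called with the length trend removed. Ifrd2, at 4.64 kb on the other side, stood at 63.7 ± 7.34 and 65.1 ± 14.0. Sema3f, another semaphorin 72.3 kb away on the same strand, is in this stretch and was not called.

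**Figure D2:**
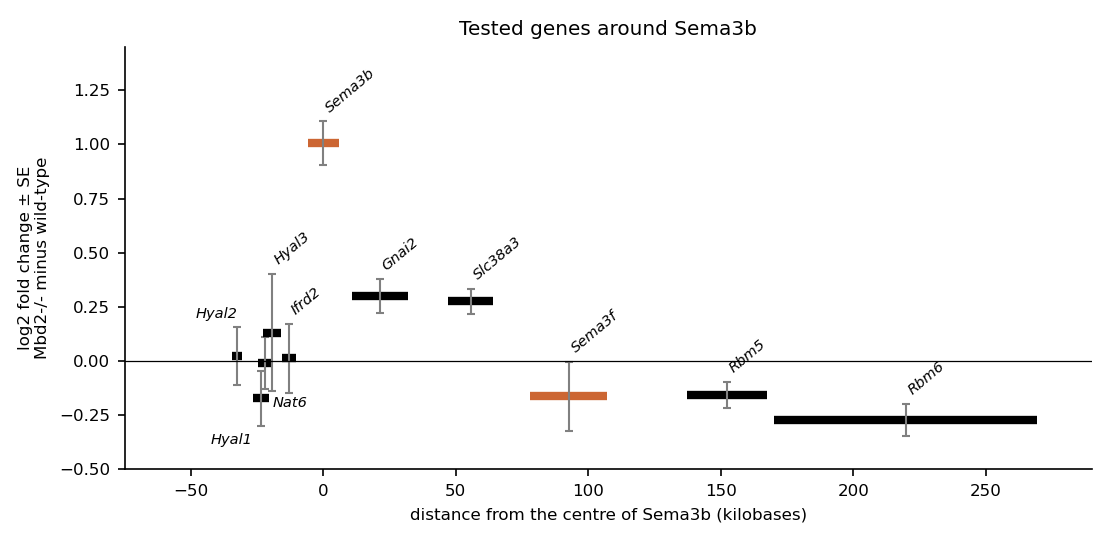
Log2 fold change of Sema3b and of the 5 nearest tested genes on each side against distance from its centre in kilobases; horizontal bars span each gene, vertical bars are the SE, and semaphorins are orange. Sema3b stands near 1, its neighbours Gnai2 and Slc38a3 near 0.3 and Sema3f below 0.

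Sema3a, the classic repellent of growth cones that signals through Nrp1, moved the other way. Its counts were low, at 77.9, 93.3, 94.8 and 74.4 in wild-type and 69.0, 62.2, 51.0 and 70.2 in Mbd2-/- libraries. No Mbd2-/- library reached the lowest wild-type library. The fall was 0.43 ± 0.14 on the log2 scale (limma adjusted p = 0.0342), but it missed the threshold with the length trend removed (-0.33, limma adjusted p = 0.101) and with DESeq2 (adjusted p = 0.0584). It was called in 3 of the 8 fits that left out a library, with a limma adjusted p of up to 0.112 without wild-type replicate 3.

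The other class 3 genes were not called. Sema3e, a ligand of Plxnd1, had a mean change of -0.17 (limma adjusted p = 0.0619), and Sema3f, the ligand of Nrp2 and Plxna3, one of -0.16 ± 0.16 with Mbd2-/- values of 40.9, 44.8, 59.0 and 36.5 against 48.3 to 52.7. Sema3g and Sema3d stood at -0.21 and -0.04. Sema3c differed by 0.17 (limma adjusted p = 0.123), and by 0.26 with the length trend removed (limma adjusted p = 0.0200). In the pool of class 3 normalized counts per kilobase of longest transcript, the share of Sema3b went from 7.93% ± 0.59 to 15.5% ± 1.15 and that of Sema3e, the most abundant, from 45.7% to 39.5%.

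Class 4 semaphorins span the membrane and act on class B plexins and other receptors. Of the 6 genes 3 were lower, where 10.0% of all tested genes were, and the median was -0.18. Sema4f, present at synapses, had 730, 631, 704 and 678 normalized counts in wild-type and 544, 555, 618 and 513 in Mbd2-/- libraries, without overlap. Its change of -0.30 ± 0.07 (limma adjusted p = 0.00668) was -0.26 with the length trend removed and still called.

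Sema4d, the ligand of Plxnb1, stood at 814, 787, 832 and 770 in wild-type and at 710, 707, 700 and 695 in Mbd2-/- libraries. The Mbd2-/- libraries were tightly grouped below the wild-type libraries, at a change of -0.19 ± 0.06 (limma adjusted p = 0.0230), which was not called with the length trend removed (limma adjusted p = 0.105). Sema4c, a ligand of Plxnb2, had 207, 179, 237 and 188 in wild-type and 139, 165, 182 and 160 in Mbd2-/- libraries. Mbd2-/- replicate 3 was above wild-type replicate 2, and the change of -0.33 ± 0.11 (limma adjusted p = 0.0354) was not called with the length trend removed (limma adjusted p = 0.0637) or without trend and robust moderation (limma adjusted p = 0.0755). With a library left out Sema4c was called in 3 of 8 fits and Sema4d in 5 of 8, with a limma adjusted p of up to 0.135 and 0.0783, both without wild-type replicate 3. Sema4a, Sema4b and Sema4g ranged from -0.17 to -0.04 and were not called.

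Classes 5 to 7 gave no call. The 4 class 6 genes, transmembrane ligands of class A plexins, all had negative changes, from -0.20 for Sema6a to -0.10 for Sema6c, and Sema6d was the 1 whose genotypes did not overlap (limma adjusted p = 0.0563). Sema6d overlaps 4930517E11Rik and 4930583P06Rik on the opposite strand, so that its reads could be mixed with theirs if strand was ignored. Sema6b stood at -0.17 (limma adjusted p = 0.0650) and at -0.13 with the length trend removed. It was called lower in 1 of the 8 fits that left out a library, without Mbd2-/- replicate 3 (limma adjusted p = 0.0113). Sema5a stood at -0.15 and Sema5b at -0.17. Sema6a, Sema6d and Sema5a were called lower without Mbd2-/- replicate 4 (limma adjusted p = 0.00917, 0.00509 and 0.00101) and had changes of -0.08, -0.05 and 0.00 with the length trend removed. Sema7a, which is tethered by a lipid anchor and binds Plxnc1, was the most abundant member per kilobase at 699 normalized counts per kilobase in wild-type and 748 in Mbd2-/-. Its change of 0.09 was not called with all libraries (limma adjusted p = 0.234), and it was called higher without Mbd2-/- replicate 4 (0.14, limma adjusted p = 0.0110).

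Both neuropilins, the binding partners of class 3 semaphorins, were lower, where 10.0% of all tested genes were. Nrp1 had 1568, 1590, 1714 and 1648 normalized counts in wild-type and 1405, 1347, 1304 and 1563 in Mbd2-/- libraries, a change of -0.22 ± 0.06 (limma adjusted p = 0.0184). Its Mbd2-/- replicate 4 was just below the lowest wild-type library. Nrp2 had 1183, 1071, 1061 and 1077 against 981, 911, 950 and 976, a change of -0.20 ± 0.06 (limma adjusted p = 0.0186). Its wild-type replicate 1 was well above the others, and without that library the limma adjusted p was 0.0762. With a library left out Nrp1 was called in 5 of 8 fits, not without wild-type replicate 3, wild-type replicate 4 or Mbd2-/- replicate 2 (limma adjusted p = 0.0715, 0.0567 and 0.0682), and Nrp2 in 6 of 8, also not without Mbd2-/- replicate 2 (0.0708). Without trend and robust moderation Nrp1 was not called (limma adjusted p = 0.0671). With the length trend removed neither was called, at -0.12 and -0.09 (limma adjusted p = 0.115 and 0.307). When Mbd2-/- replicate 4 was also left out, Nrp1 was called lower and Nrp2 was not. The ratio between the neuropilins stayed close, Nrp1 making up 62.8% of their counts per kilobase in wild-type and 62.6% in Mbd2-/-.

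All 4 class A plexins, the signalling receptors of class 3 and class 6 semaphorins, were lower and none overlapped between genotypes, with a median of -0.27. Of all tested genes 10.0% were called lower and 11.5% were lower without overlap. Plxna1 had 3181, 2821, 3236 and 3121 in wild-type and 2434, 2612, 2439 and 2471 in Mbd2-/- libraries, a change of -0.31 ± 0.05 (limma adjusted p = 9.5e-04). Plxna2, receptor of Sema6a and Sema5a on granule cells, had 2151, 2068, 2093 and 2113 against 1703, 1710, 1627 and 1785, a change of -0.30 ± 0.05 (limma adjusted p = 6.4e-04). Both were called with the length trend removed, at -0.18 and -0.16 (limma adjusted p = 0.0340 and 0.0350). When Mbd2-/- replicate 4 was also left out, Plxna1 was called (limma adjusted p = 0.0435) and Plxna2 fell just outside the threshold (-0.12, limma adjusted p = 0.0500005).

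Plxna3, partner of Nrp2, had 285, 308, 304 and 280 in wild-type and 223, 245, 263 and 272 in Mbd2-/- libraries, and its change of -0.23 ± 0.08 was close to the threshold (limma adjusted p = 0.0469). It was called in only 2 of the 8 fits that left out a library, and not with the length trend removed (-0.12, limma adjusted p = 0.326), with DESeq2 (adjusted p = 0.0655), without the filter on low values (limma adjusted p = 0.0633) or with the replicate number as a block (limma adjusted p = 0.0553). Plxna4, the most abundant plexin per kilobase, had 5579, 5011, 5391 and 5351 against 4463, 4680, 4503 and 4961. Its change was -0.20 ± 0.05 (limma adjusted p = 0.0116), and -0.04 with the length trend removed (limma adjusted p = 0.546). Plxna4 was also not called without trend and robust moderation or without wild-type replicate 1 (limma adjusted p = 0.0565 and 0.0527). Reads of Plxna4 and of its antisense RNA cannot be told apart where the counting ignored strand, which the sources used here do not state. Plxna4os1 had 3 to 19 reads per library and was not called, except as lower in the fit with the length trend removed and without Mbd2-/- replicate 4 (-0.98, limma adjusted p = 0.0427).

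**Figure D3:**
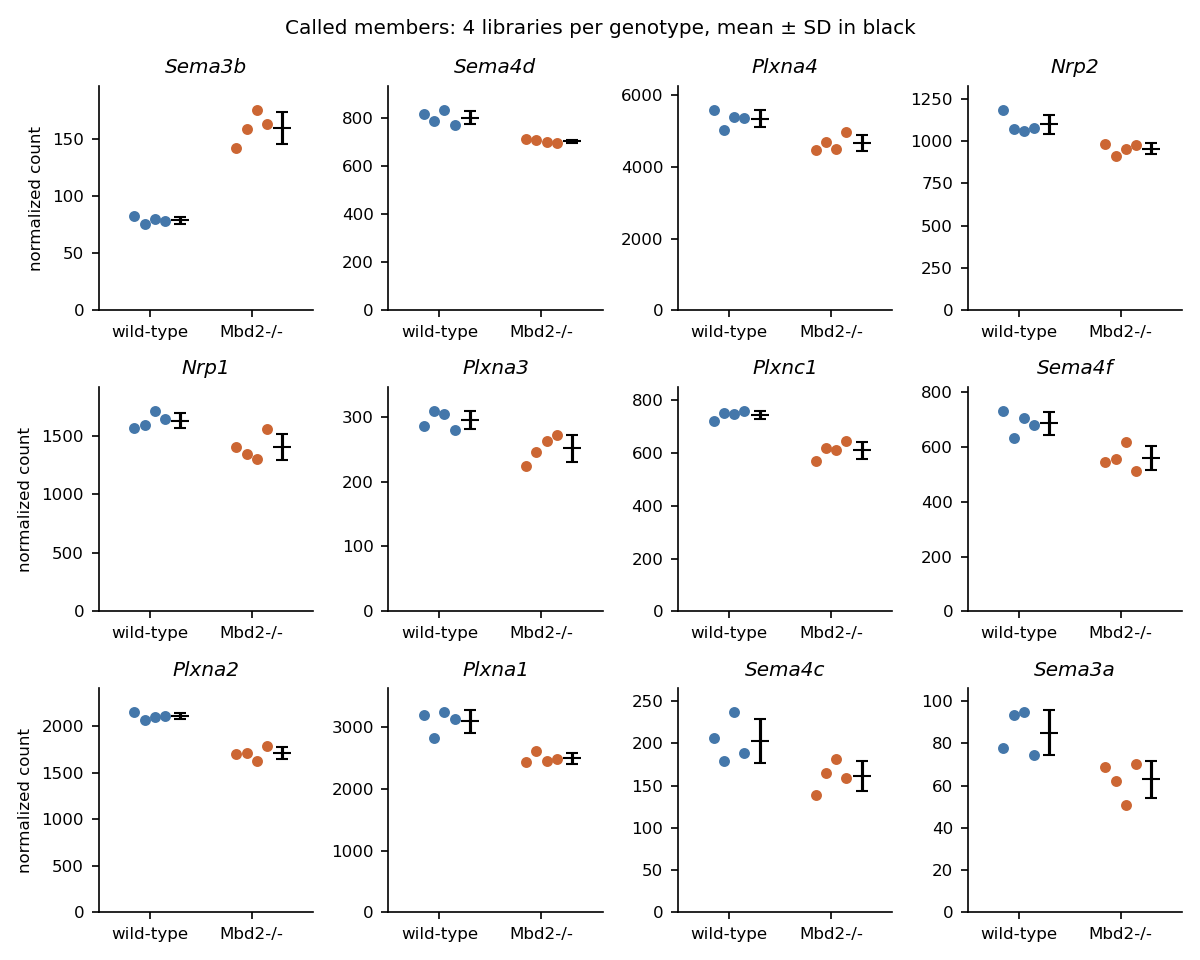
Normalized counts of the 12 called members in each of 4 wild-type (blue) and 4 Mbd2-/- (orange) libraries, with the mean ± SD in black and axes from 0. The mean of Sema3b goes from 79.0 to 160, while the 11 other genes are lower in Mbd2-/- libraries.

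The class B plexins were not called. Plxnb1 and Plxnb2, receptors of Sema4d and Sema4c, had changes of 0.04 and 0.09 with 95% intervals of -0.08 to 0.15 and -0.03 to 0.21, and Plxnb3 one of -0.19 (limma adjusted p = 0.0550). With the length trend removed Plxnb1 and Plxnb2 were called higher (0.17 and 0.20, limma adjusted p = 0.0478 and 0.0246). Plxnd1, the receptor of Sema3e in vessels and neurons, had 595, 572, 597 and 589 in wild-type and 621, 626, 617 and 601 in Mbd2-/- libraries without overlap, yet its change of 0.07 was not called (limma adjusted p = 0.424), and it was called at 0.18 with the length trend removed (limma adjusted p = 0.0477). Plxnc1, the receptor of Sema7a, was lower, with 722, 750, 747 and 759 against 568, 618, 612 and 645. Its change of -0.29 ± 0.06 (limma adjusted p = 0.00319) was called with the length trend removed as well (-0.17, limma adjusted p = 0.0421).

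**Figure D4:**
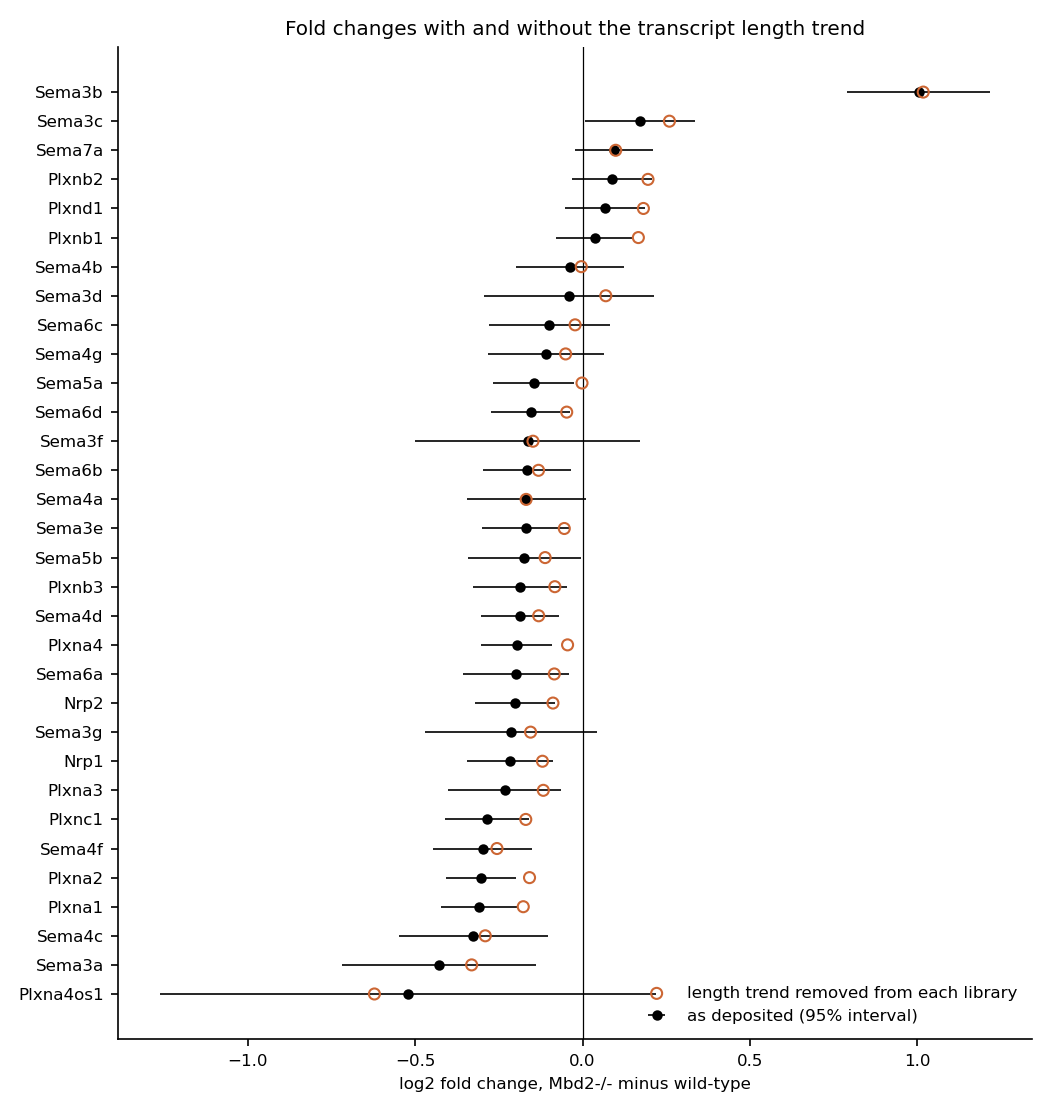
Log2 fold changes of the 32 members with 95% intervals (black) and after removal of the transcript length trend (open orange circles). Most circles lie to the right of the black points, while Sema3b stays near 1 in both.

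Shares within a library do not depend on its scaling. The length trend was not removed from the shares given here and above, so they can carry it. Of plexin counts per kilobase, Plxna1 made up 19.4% ± 0.59 in wild-type and 17.2% ± 0.58 in Mbd2-/-, and Plxna2 10.8% ± 0.27 and 9.67% ± 0.42. Plxnb1 went from 16.5% ± 0.19 to 18.7% ± 0.70, Plxnb2 from 11.8% ± 0.28 to 13.9% ± 0.60 and Plxnd1 from 4.82% ± 0.07 to 5.58% ± 0.24. Over the 9 plexins, 3 shares were lower without overlap (Plxna1, Plxna2 and Plxnc1), 3 were higher without overlap (Plxnb1, Plxnb2 and Plxnd1) and 3 overlapped (Plxna3, Plxna4 and Plxnb3), and no test was made of them. A share also moves with the other genes of its pool, and the level of Plxnb1 itself was 291 normalized counts per kilobase in wild-type and 299 in Mbd2-/-.

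**Figure D5:**
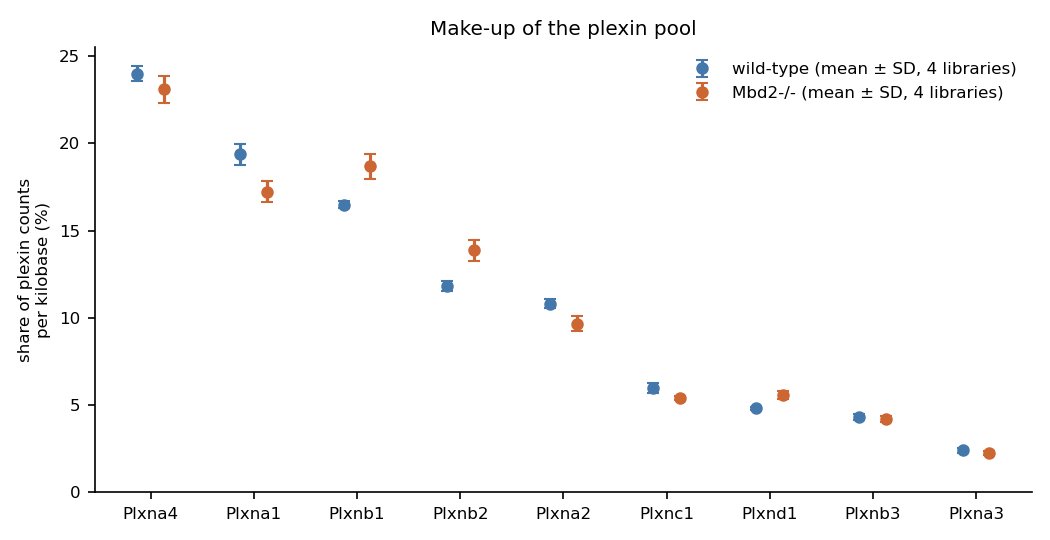
Share of each plexin in the plexin counts per kilobase of longest transcript (percent, mean ± SD over 4 libraries) in wild-type (blue) and Mbd2-/- (orange). Plxna1 falls from 19.4% to 17.2% and Plxnb1 rises from 16.5% to 18.7%.

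Genes that act with these receptors were read from a list of 40 co-receptors and effectors, of which 38 were tested. Of these 10 were lower and 2 higher, where 10.0% and 12.0% of all tested genes were, with a median of -0.10. Among co-receptors L1cam, the adhesion partner of Nrp1, fell by 0.43 ± 0.05 on the log2 scale (limma adjusted p = 9.5e-05), from 1234 ± 25.5 to 914 ± 36.0, and Chl1 and Cntn2, further neural adhesion molecules, were lower by -0.31 and -0.22. Tyrobp, a microglial adaptor, was higher by 0.42. Nrcam, the most abundant co-receptor, stood at -0.12 (limma adjusted p = 0.0820).

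Among effectors the collapsin response mediator genes Dpysl2 and Dpysl3 were lower (-0.17 and -0.21), as were Mical2 and Mical3, which oxidise actin (-0.17 and -0.22), the GTPase regulator Arhgef11 (-0.16), the GTPase gene Rnd1 (-0.46) and the kinase gene Pak1 (-0.15). The GTPase gene Rhoa was higher (0.22). Arhgef12 and Cfl1, among the most abundant of the list, were not called (-0.03 and 0.08), but Cfl1, which encodes the actin-severing protein cofilin, was called lower with the length trend removed (-0.15, limma adjusted p = 0.0220). In that fit 5 of the 10 lower calls were kept, those of L1cam, Chl1, Dpysl2, Rnd1 and Pak1, and 0 of the 2 higher calls, with Tyrobp at 0.08 and Rhoa at 0.14 (limma adjusted p = 0.676 and 0.0566). Crmp1 and Cfl1 as lower and Kdr and Trem2 as higher took the counts to 7 and 2, where 6.80% and 8.09% of all genes were called; Crmp1, Kdr and Trem2 are named after their values were seen. The number lower ranged from 4 without wild-type replicate 3, and likewise 4 without Mbd2-/- replicate 2, to 14 without Mbd2-/- replicate 4, which also gave 7 higher, where 17.6% and 17.9% of all genes were called.

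Markers of regions and cell types moved beside these results, where 10.0% of all tested genes were lower and 12.0% higher. Of 13 thalamic markers 10 were lower, with a median of -0.49 and a summed count of 5254 to 5412 in wild-type and 3580 to 3831 in Mbd2-/- libraries, and Amotl1, Prkcd and Plekhg1, the most abundant, changed by -0.43, -0.61 and -0.40. Of 12 markers of hippocampal excitatory neurons, all present, 3 were lower and 1 higher, and their sum was 31273 to 31814 and 27296 to 30700. Of interneuron markers 2 of 6 were lower and 3 higher, and of oligodendrocyte precursor markers 2 of 4 were lower. Markers were higher in 7 of 10 for oligodendrocytes, 6 of 8 for astrocytes, 6 of 8 for microglia and 3 of 10 for endothelium and pericytes, with none lower. With the length trend removed 10 of 10 lower thalamic calls, 3 of 3 of hippocampal excitatory neurons and 2 of 2 of interneurons were kept, and of the higher calls 0 of 1 for hippocampal excitatory neurons, 6 of 7 for oligodendrocytes, 6 of 6 for astrocytes, 3 of 3 for endothelium and pericytes, 2 of 6 for microglia and 0 of 3 for interneurons, while the 2 calls of oligodendrocyte precursors were lost. No listed marker was at 0 in all libraries, and the part of these cell types in the members' changes was not tested.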

How the data were processed

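Per the labels, the study's methods and the submitters' processing notes, the authors discarded duplicates before STAR alignment (genome build mm9) and used DESeq2 for the genotype comparison (versions, counting tool and strand setting are not given in the sources used here). Per library, the authors deposited a signal in normalized counts: reads over a size factor. The authors' comparison columns (mean, log2 fold change with standard error, statistic as a score, p-value and adjusted p-value) were deposited in the same table and were not used. Dividing by the value of 1 read gave whole reads for 100% of values (tolerance 0.01), and 8087750 to 23790825 reads on genes per library. P-values measure the spread between pools of mice.

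Genes with a mean of at least 10 were fitted with limma 3.58.1 in R 4.3.3 (trend, robust, pseudocount 1, no covariate). Fold changes are on the log2(normalized count + 1) scale, which understates changes of low genes. Other fits used recovered reads, with edgeR 4.0.16 (quasi-likelihood), DESeq2 1.42.0 and limma-voom, or other scalings, filters, pseudocount and moderation, a 1.2-fold minimum, a replicate block, the length trend (lowess, span 0.3) and leaving out each library. The limma, DESeq2, edgeR and limma-voom fits, and limma with the length trend removed, were tested on simulated data first. Positions and lengths are GENCODE vM1 on mm9 (16812 symbols matched directly, 1290 by synonym). No member shared a word of 100 bases with another gene's transcript, over 31 searched. All members are named; of the partner list, called and most abundant genes; of markers, the most abundant of the lists described in detail, since not every gene the rule selects is reported. The members, gene lists and tests were chosen with earlier results of these data known.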

Additional observations from a re-analysis of the deposited data

Results flagged for a closer look

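In wild-type replicate 1, Nrp2 had a normalized count of 1182.58, whereas the other 3 wild-type libraries lay between 1061 and 1077. The gap to the nearest library was 0.868 of the range of the group, above the limit of Dixon's test for 4 samples. It was the 1 value singled out among 66 groups of 4 libraries examined, and chance alone marks about 1 group in 20. The limma adjusted p of Nrp2 was 0.0186 with all libraries and 0.0762 without this one.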

How the results depend on the processing

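Against 11 members called lower and 1 higher, limma without trend and robust moderation gave 7 lower (6.45% of all genes), a minimum change of 1.2-fold 0 (0.159%), upper quartile scaling 14 (11.3%) and a mean of at least 50 gave 13 of 30 tested (11.9%). Removing the length trend gave 4 lower and 5 higher and a median of -0.0865, and doing so without Mbd2-/- replicate 4, an alternative chosen after seeing the data, gave 5 lower (10.1% of all genes), 6 higher (10.8%) and a median of -0.0595. Leaving out each library in turn gave 5 to 16 lower (5.98% to 17.6% of all genes) and 1 to 2 higher (8.07% to 17.9%). Of the partner genes, 10 lower and 2 higher in the main comparison, 3 and 1 were called without trend and robust moderation, 0 and 0 with the 1.2-fold minimum, and 4 higher with the length trend removed and without Mbd2-/- replicate 4, and leaving out each library gave 4 to 14 lower and 1 to 7 higher. DESeq2 called 9 members lower (9.18% of all genes) and edgeR and limma-voom 11 each (9.67% and 9.97%). The replicate numbers paired no libraries, since deviations of same-numbered libraries correlated at -0.10 to 0.07. With the replicate number as a block 10 members were lower (9.99% of all genes) and 1 higher (12.0%). Over all alternatives, 582 of 670 fold changes of members kept direction and side of the threshold, 58 lost the call, 22 gained one and 8 changed sign, each of a gene not called in either fit. Sema3d was at 0.0693 with the length trend removed, and leaving out each library gave -0.12 to 0.045 for Sema3d and -0.0941 to 0.0109 for Sema4b. With the length trend removed and without Mbd2-/- replicate 4, Sema3d, Sema4b, Sema6c and Sema5a were at 0.0366, 0.0312, 0.0353 and 0.00801. Depth limits the antisense RNA Plxna4os1, with 3 to 19 reads; the other members had at least 32 reads in each library.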
